A study of Mus musculus with 6 samples.

Results

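The enzymes that write and remove DNA methylation, the core of Polycomb repressive complex 2 and a reader of methylated DNA were followed in regulatory T cells (Tregs) from mouse melanoma. The 10 genes were chosen by name: *Dnmt1*, *Dnmt3a*, *Dnmt3b*, *Tet1*, *Tet2*, *Tet3*, *Ezh2*, *Eed*, *Suz12* and *Mbd2*. All 10 had a value among the 12153 genes measured. RNA-Seq was done on 6 libraries of Tregs sorted from B16.F10 tumors, a transplanted mouse melanoma line, on day 15 after inoculation. The 3 control libraries came from Nr3c1-flox mice. The 3 Nr3c1Foxp3-Cre libraries came from Nr3c1-flox_Foxp3-YFP/Cre mice, in which the *Foxp3* promoter drives Cre and deletes *Nr3c1*, the glucocorticoid receptor gene, in Foxp3-expressing cells. Both groups carried the floxed *Nr3c1* allele, and the labels name the YFP/Cre allele for the Nr3c1Foxp3-Cre mice alone. The labels describe the sorted cells as CD4+CD25+ Tregs, stained for CD45. The methods of the study instead give the sort as CD45.2+CD4+ cells positive for Foxp3-YFP, without cells that stained for CD11b, CD11c, B220, NK1.1 or TCR-γδ. These sources differ on whether control cells carried a YFP allele, and this was not resolved here. Whether each library came from its own mouse, and the age of the mice, were not given in the sources used here, so p-values measure the spread between these libraries.

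DNMT1 copies DNA methylation onto the new strand after replication, and DNMT3A and DNMT3B set methylation at new CpG sites. The TET enzymes oxidize methylcytosine and so start its removal. In Polycomb repressive complex 2 (PRC2), EZH2 methylates histone H3 at lysine 27, EED binds that mark and SUZ12 holds the complex together, and the genes that carry the mark are repressed. MBD2 binds methylated CpG and brings in the NuRD remodeling and deacetylase complex. In Tregs, an intronic enhancer of *Foxp3* is kept free of DNA methylation, which TET2 and TET3 take part in and which stabilizes *Foxp3* expression, and EZH2 is needed for the stability of activated Tregs.

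The promoter windows of 1 maintenance methyltransferase, 1 Polycomb enzyme and 2 TET genes are shown because these genes include the scarcest and some of the most abundant of the 10, and because the deletion removes a DNA-binding receptor. The windows run from 250 bases before to 50 after the annotated start, on RefSeq GRCm38.p6, and are written 5′ to 3′ on the strand of the gene. The *Dnmt1* window is at chr9:20952574-20952873 on the minus strand, and *Dnmt1* also has other annotated starts. The *Ezh2* window is at chr6:47594981-47595280, the *Tet2* window at chr3:133544341-133544640 and the *Tet1* window at chr10:62887275-62887574, all on the minus strand. Capitals mark TTTCGCGC or TTTGGCGC, the letters of an E2F site, and AGAACA, the arm of a glucocorticoid receptor element, each on either strand.
Dnmt1: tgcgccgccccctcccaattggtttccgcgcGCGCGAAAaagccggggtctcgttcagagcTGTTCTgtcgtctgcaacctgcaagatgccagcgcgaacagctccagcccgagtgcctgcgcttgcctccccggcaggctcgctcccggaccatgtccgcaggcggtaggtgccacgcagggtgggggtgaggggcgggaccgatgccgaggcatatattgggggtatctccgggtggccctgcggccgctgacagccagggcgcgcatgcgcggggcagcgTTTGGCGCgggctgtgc
Ezh2: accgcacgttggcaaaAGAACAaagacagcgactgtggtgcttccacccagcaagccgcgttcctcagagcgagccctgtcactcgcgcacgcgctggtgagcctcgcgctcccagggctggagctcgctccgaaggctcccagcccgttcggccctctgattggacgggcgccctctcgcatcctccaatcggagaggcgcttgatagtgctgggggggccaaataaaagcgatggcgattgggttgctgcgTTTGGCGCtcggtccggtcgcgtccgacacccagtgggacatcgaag
Tet2: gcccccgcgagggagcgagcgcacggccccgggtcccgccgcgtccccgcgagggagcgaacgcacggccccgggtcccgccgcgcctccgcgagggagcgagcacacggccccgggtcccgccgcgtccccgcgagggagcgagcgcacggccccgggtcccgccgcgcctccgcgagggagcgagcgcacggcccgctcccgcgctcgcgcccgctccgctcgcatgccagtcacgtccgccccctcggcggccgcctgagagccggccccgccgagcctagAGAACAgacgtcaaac
Tet1: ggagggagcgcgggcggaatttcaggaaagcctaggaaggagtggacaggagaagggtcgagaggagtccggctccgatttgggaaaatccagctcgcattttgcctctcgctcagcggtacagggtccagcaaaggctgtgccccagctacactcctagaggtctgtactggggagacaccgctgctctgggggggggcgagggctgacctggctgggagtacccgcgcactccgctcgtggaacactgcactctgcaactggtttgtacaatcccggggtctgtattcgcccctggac

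E2F factors drive genes of DNA replication in dividing cells. The E2F letters stood in the *Dnmt1* window shown at -219 and 33 bases from the annotated start used, negative being before it. In the *Ezh2* window they stood at 3 bases. The other annotated *Dnmt1* starts lie before the start shown, so counted from them these *Dnmt1* letters lie inside the gene. The E2F letters were in none of the other windows of these genes, and 0.813% of 32851 mouse promoter windows of this length held them. The AGAACA letters, which 19.0% of windows held, were in windows of *Dnmt1*, *Ezh2*, *Eed* and *Tet2*. Of the *Dnmt1* windows, only the window shown held them. *Dnmt1* and *Dnmt3a* had several windows each, and the shares are over windows, so they are not like a count of genes. The *Tet1* window held neither the E2F nor the AGAACA letters. That window lies inside *Tet1* as annotated in GENCODE M21, where the gene starts at 62908996 on the minus strand. No window at that start was examined. The longer core of a glucocorticoid receptor element, ACANNNTGT on either strand, was in 6.85% of all windows and in no window of these genes. CpG dinucleotides were dense in most of them. The *Tet2* window held 57, the *Suz12* window 41 and the *Ezh2* window 31, against a median of 7 over all windows, and the *Tet1* and *Eed* windows held 17 each. The *Dnmt1* window shown held 33, while windows at its other annotated starts held 12 and 2. A match of letters describes the sequence and does not show a bound factor. Of the 10 genes, 9 had windows here. Windows on chromosome 18, which holds *Mbd2*, were left out, also from the 32851.

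The deletion was visible in the libraries. *Nr3c1* was lower in Nr3c1Foxp3-Cre Tregs by a log2 fold change of -1.38 (adjusted p = 0.120 in limma), and its target *Tsc22d3*, which encodes the glucocorticoid-induced protein GILZ, by -1.56 (adjusted p = 0.0342), both with no overlap between groups. The adjusted p of *Tsc22d3* rose to 0.0712 without control replicate 3 and to 0.0639, 0.140 and 0.154 without Nr3c1Foxp3-Cre replicates 1, 2 and 3, with log2 fold changes of -1.68 to -1.52. It was 0.137 with the replicate block and 0.221 without a trend. T cell genes were present in every library, with summed levels of 8 Treg and T cell markers at 3535 to 4872 CPM (read counts scaled to a common library total) in control and 3656 to 4383 in Nr3c1Foxp3-Cre. *Foxp3* itself was low, at log2 CPM 3.39, 4.42 and 3.91 in control and 4.47, 3.50 and 3.90 in Nr3c1Foxp3-Cre. Transcripts of melanoma marker genes were also present in every library, although both descriptions of the sort select CD45-positive cells and the methods also exclude CD11b and CD11c, which mark myeloid cells. The sum of 8 melanoma markers ran from 3598 to 9692 CPM in control and from 3970 to 10093 in Nr3c1Foxp3-Cre, and it was lowest in control replicate 2 and Nr3c1Foxp3-Cre replicate 3. The sum of 8 myeloid markers was 339 to 496 CPM in control and 252 to 486 in Nr3c1Foxp3-Cre, but their mean log2 level did not overlap, at 4.05 to 4.60 in control and 3.75 to 3.99 in Nr3c1Foxp3-Cre. All 8 myeloid markers had a lower mean in Nr3c1Foxp3-Cre, with a median log2 fold change of -0.40 and none at an unadjusted p under 0.05 in limma. The sum of 5 fibroblast and endothelial markers was 236 to 502 CPM in control and 138 to 225 in Nr3c1Foxp3-Cre, without overlap. Of these, 4 had a lower mean, with *Col1a1* lowest at a log2 fold change of -1.87. The endothelial marker *Pecam1* had a higher mean, at 0.28. At an unadjusted p under 0.05 in limma were 3 of the lower markers and *Pecam1*, and none was called after adjustment. The part of myeloid and stromal RNA in the results was not tested. Among CD8 T cell and natural killer markers 1 of 5 had a value, and among B cell markers 1 of 4. In such bulk samples, fewer cells of a type and less RNA per cell cannot be told apart.

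No difference between control and Nr3c1Foxp3-Cre Tregs was detected in the transcripts of the methylation and Polycomb genes, within intervals that were narrow for the abundant genes and wide for the scarce ones. Of the 10 genes, 4 had a higher mean in Nr3c1Foxp3-Cre (*Dnmt1*, *Dnmt3a*, *Tet3* and *Suz12*) and 6 a lower mean, against 49.5% of all genes with a higher mean. None of the 10 passed an adjusted p of 0.05 in limma, where 0.0576% of all genes did (1 higher and 6 lower), and each of the 10 had an adjusted p of 1.0. None had an unadjusted p under 0.05, against 3.26% of all genes, and in none did the 3 libraries of a group lie apart from the other 3, against 7.41% of all genes. The median log2 fold change of the 10 genes was -0.02, and that of all genes was -0.0014. With 3 libraries a group, the smallest p an exact two-sided permutation test can give is 0.1. Log2 fold changes are Nr3c1Foxp3-Cre against control throughout, with their standard error (SE) and 95% interval from limma.

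**Figure D1:**
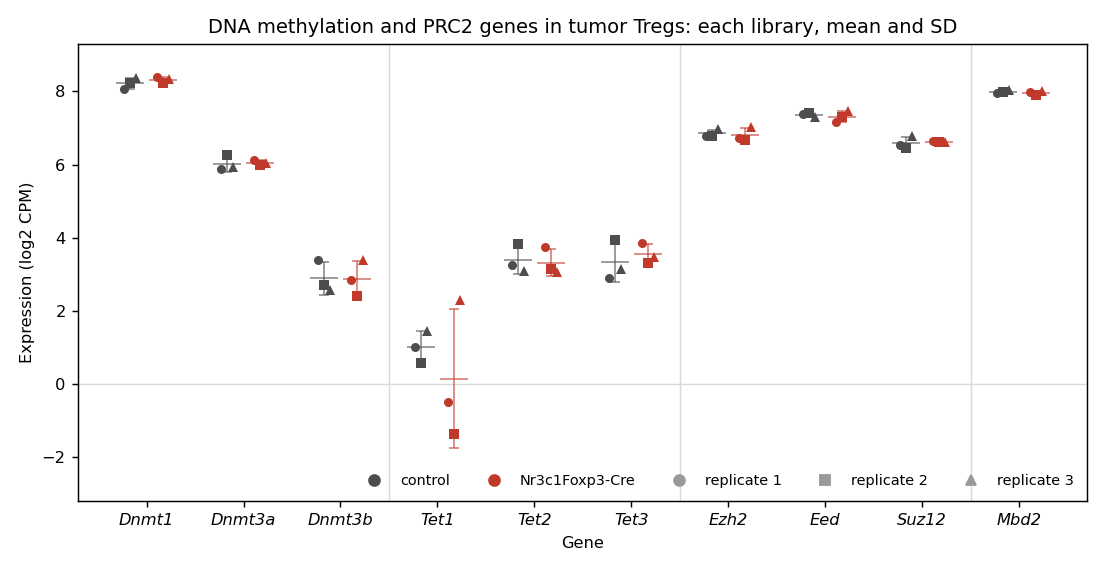
Level of each of the 10 genes (log2 CPM, y axis) in each library, with replicates as points, control in gray and Nr3c1Foxp3-Cre in red, the group mean as a horizontal line and the SD as whiskers (n = 3). The groups overlapped for all 10 genes, and Tet1 ran from -1.37 to 2.29 within the Nr3c1Foxp3-Cre group.

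The methyltransferase transcripts differed in level far more than they differed between genotypes. *Dnmt1*, the maintenance enzyme, was at log2 CPM 8.06, 8.22 and 8.38 in control and 8.39, 8.24 and 8.33 in Nr3c1Foxp3-Cre. The lowest value was control replicate 1, and the other 5 libraries lay close together. Between genotypes, the log2 fold change was 0.10 (SE 0.11, unadjusted p = 0.377 in limma), with an interval from -0.14 to 0.34. On the linear scale that interval runs from -9.33% to 26.5%.

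*Dnmt3a*, the more abundant of the de novo enzymes, was at log2 CPM 5.87, 6.26 and 5.93 in control and 6.12, 6.0 and 6.04 in Nr3c1Foxp3-Cre. All 3 Nr3c1Foxp3-Cre values fell inside the control range. For *Dnmt3a* the log2 fold change was 0.04 (SE 0.13, interval -0.26 to 0.33). *Dnmt3b*, the other de novo enzyme, was at log2 CPM 3.39, 2.70 and 2.56 in control and 2.85, 2.40 and 3.38 in Nr3c1Foxp3-Cre. One library of each group was high, and the group means were both 2.88. Its log2 fold change of -0.01 (SE 0.33) had an interval from -0.75 to 0.74, or -40.6% to 67.0% on the linear scale, so a change of moderate size in *Dnmt3b* was not detectable with these libraries. Within a library, *Dnmt1* exceeded *Dnmt3a* by a mean of 2.20 log2 units in control and 2.26 in Nr3c1Foxp3-Cre, not divided by gene length.

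The TET transcripts had the widest spread of the 10 genes together with *Dnmt3b*. *Tet1* was at log2 CPM 1.02, 0.58 and 1.46 in control and -0.49, -1.37 and 2.29 in Nr3c1Foxp3-Cre. The lowest pair of values and the highest value were all in Nr3c1Foxp3-Cre, and the highest and lowest libraries differed 12.6-fold on the linear scale. The log2 fold change was -0.88 (SE 0.83, unadjusted p = 0.316 in limma, interval -2.74 to 0.99). Its size rested on single libraries, while its direction stayed in each fit with a library left out. Without Nr3c1Foxp3-Cre replicate 3 the log2 fold change of *Tet1* was -1.95 (unadjusted p = 0.00598 and adjusted p = 0.999 in limma), and without replicate 2 of that group it was -0.12. The pooled SD of *Tet1* was 1.38, against a median of 0.534 over the 734 genes whose mean lay within 0.5 log2 units of it, and its mean level was at percentile 3.09 of all genes.

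*Tet2* was at log2 CPM 3.25, 3.83 and 3.08 in control and 3.74, 3.14 and 3.07 in Nr3c1Foxp3-Cre. One library of each group stood above its other 2, and the groups covered nearly the same range. For *Tet2* the log2 fold change was -0.07 (SE 0.28), with an interval from -0.70 to 0.56. *Tet3* was at log2 CPM 2.91, 3.93 and 3.14 in control and 3.87, 3.32 and 3.47 in Nr3c1Foxp3-Cre. Its spread in control enclosed the whole Nr3c1Foxp3-Cre group. The log2 fold change of *Tet3* was 0.23 (SE 0.30, unadjusted p = 0.466 in limma, interval -0.44 to 0.89). The libraries that were high for *Tet2* were also high for *Tet3* and for *Foxp3*, namely control replicate 2 and Nr3c1Foxp3-Cre replicate 1. Control replicate 2 was the control library with the least melanoma marker RNA, while Nr3c1Foxp3-Cre replicate 1 had an intermediate level. With mean melanoma marker level added to the model, an alternative not planned before the data were seen, the log2 fold changes were -0.94 for *Tet1*, -0.08 for *Tet2* and 0.20 for *Tet3*, and the intervals still included 0.

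The 3 core subunits of PRC2 were abundant and even across libraries. *Ezh2*, the catalytic subunit, was at log2 CPM 6.79, 6.79 and 6.97 in control and 6.73, 6.67 and 7.03 in Nr3c1Foxp3-Cre. The lowest pair of values and the highest were in Nr3c1Foxp3-Cre, and the control values lay between them. The log2 fold change was -0.04 (SE 0.12, interval -0.31 to 0.23), which is -19.5% to 17.5% on the linear scale. *Eed* was at log2 CPM 7.39, 7.42 and 7.29 in control and 7.17, 7.30 and 7.47 in Nr3c1Foxp3-Cre. Here too the extremes on both sides were Nr3c1Foxp3-Cre libraries. For *Eed* the log2 fold change was -0.05 (SE 0.11, interval -0.29 to 0.19). *Suz12* was at log2 CPM 6.53, 6.45 and 6.77 in control and 6.66, 6.62 and 6.61 in Nr3c1Foxp3-Cre. The Nr3c1Foxp3-Cre libraries were nearly identical (SD 0.02) and inside the control range. The change in *Suz12* was 0.05 on the log2 scale (SE 0.11, interval -0.20 to 0.30).

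The proportions of the subunits within a library did not shift beyond their spread. *Ezh2* was below *Eed* by 0.52 ± 0.17 log2 units (SD, n = 3) in control and 0.50 ± 0.11 in Nr3c1Foxp3-Cre, as differences in log2 CPM within a library. *Eed* was above *Suz12* by 0.78 in control and 0.69 in Nr3c1Foxp3-Cre, and *Ezh2* was above *Suz12* by 0.27 and 0.18. *Ezh1*, the alternative catalytic subunit, which is less tied to dividing cells, was below *Ezh2* in all 6 libraries, by 0.07 to 0.62 log2 units. None of these differences is divided by gene length. Per kilobase of exon, *Suz12* was above *Ezh2* in all 6 libraries.

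*Mbd2* was the steadiest of the 10 genes. It was at log2 CPM 7.95, 7.98 and 8.04 in control and 7.99, 7.89 and 8.01 in Nr3c1Foxp3-Cre. The groups overlapped in part, with the lowest value in Nr3c1Foxp3-Cre and the highest in control. Their pooled SD was 0.056, against a median of 0.134 among genes of like level. Its log2 fold change was -0.03 (SE 0.09, unadjusted p = 0.781 in limma), with an interval of -14.4% to 12.8% on the linear scale. Its relative *Mbd3*, a NuRD subunit, was lower by 1.32 log2 units in control and 1.31 in Nr3c1Foxp3-Cre, not divided by gene length.

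**Figure D2:**
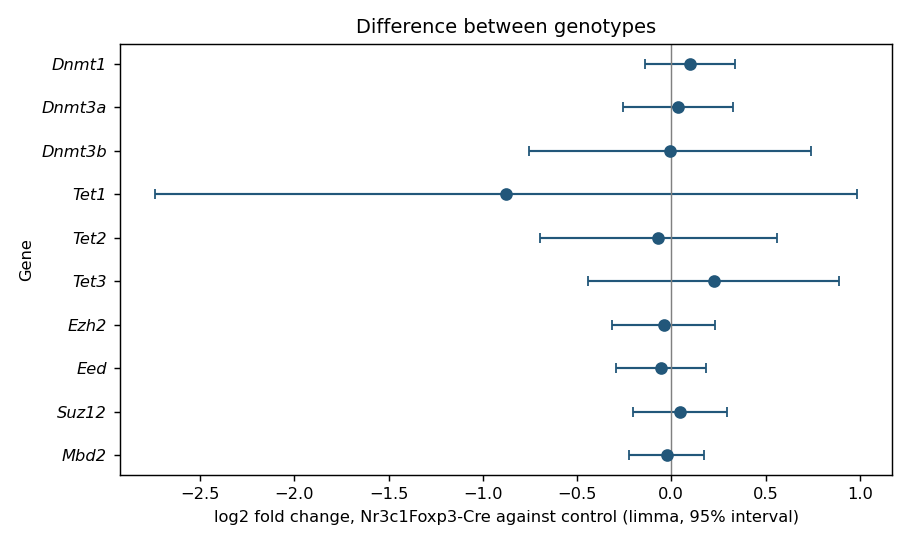
Log2 fold change of each gene, Nr3c1Foxp3-Cre against control (x axis), as a point with its 95% interval from limma. All 10 intervals include 0, and the interval of Tet1, from -2.74 to 0.99, is the widest.

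The precision followed the level. The 6 abundant genes (*Dnmt1*, *Mbd2*, *Eed*, *Ezh2*, *Suz12* and *Dnmt3a*) had pooled SDs of 0.056 to 0.155 log2 units, and their 95% intervals reached no further than 26.5% upward and -19.5% downward. For *Dnmt3b*, *Tet2* and *Tet3* the pooled SDs were 0.379 to 0.467, above the medians of 0.305 to 0.360 for genes of like level. The 4 scarce genes were therefore compared with much less certainty.

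Divided by gene length, *Mbd2*, *Eed* and *Dnmt1* led and the TET genes came last. On the scale of log2 CPM per kilobase of exon, averaged over the 6 libraries, *Mbd2* was at 6.29, *Eed* at 5.41, *Dnmt1* at 5.39, *Suz12* at 4.30 and *Ezh2* at 4.09. *Dnmt3a* followed at 1.98, *Dnmt3b* at 0.53, *Tet3* at -0.62, *Tet2* at -0.73 and *Tet1* at -3.37. As linear levels per kilobase this is 78.4 CPM for *Mbd2* and 0.0969 CPM for *Tet1*. The order was the same in all 6 libraries for 43 of the 45 pairs of genes. The exceptions were neighbors in the order, *Eed* with *Dnmt1* (mean difference 0.02, SD 0.20) and *Tet3* with *Tet2* (mean difference 0.10, SD 0.24), which did not differ beyond their spread. With the longest transcript as the length, a choice made after seeing the data, *Ezh2* came above *Suz12* and *Tet2* above *Tet3*. On the same per-length scale the partners *Rbbp7* (7.79), *Rbbp4* (5.75), *Mbd3* (5.67) and *Uhrf1* (5.67) lay among or above the most abundant of the 10, and *Ezh1* was at 3.59.

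**Figure D3:**
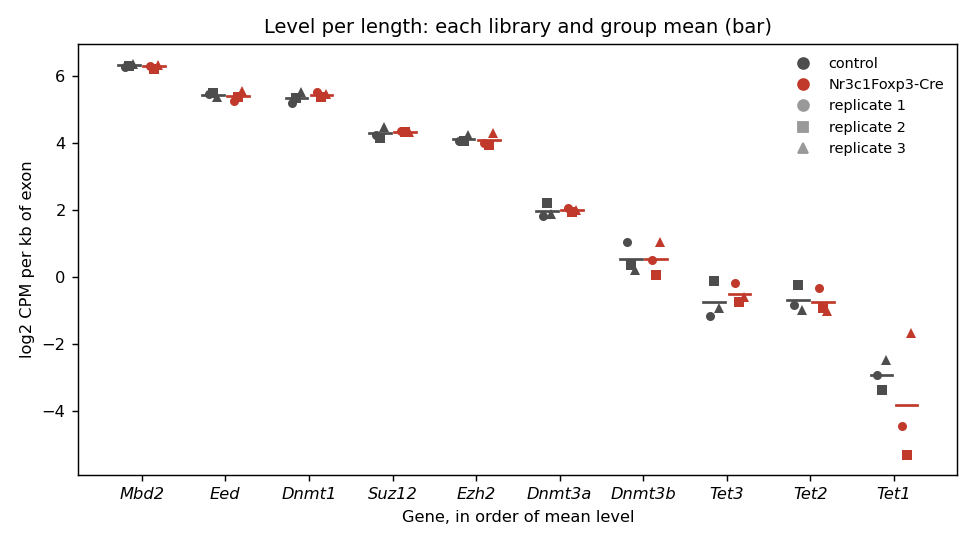
Level per length (log2 CPM per kilobase of exon, y axis) of the 10 genes in each of the 6 libraries, as points with group means as bars, in order of mean level. The TET genes lie lowest, from -0.62 for Tet3 to -3.37 for Tet1 on average, and Mbd2 highest of the 10 at 6.29.

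The other genes of these pathways were read against the shares over all genes. In 8 lists of partners, readers, complexes and opposing enzymes, 71 of 75 genes had a value. Of these, 36 were higher and 35 lower in Nr3c1Foxp3-Cre, with a median log2 fold change of 0.0032. None passed an adjusted p of 0.05 in limma and 1 had an unadjusted p under 0.05, against 3.26% of all genes. The groups lay apart in 3 genes that were higher and 2 that were lower, a share near the 7.41% of all genes.

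Among 7 measured DNA methylation partners, 3 were higher and 4 lower, with none at an unadjusted p under 0.05. *Uhrf1*, which brings DNMT1 to newly replicated DNA, had a log2 fold change of 0.01. *Smchd1*, a chromatin protein of the inactive X chromosome, had the highest value of the list at 0.08, and *Hells*, a remodeler needed for DNA methylation, the lowest at -0.16. Among 7 other readers of methylated DNA, 2 were higher and 5 lower, from -0.38 for *Zbtb33*, which encodes Kaiso, to 0.22 for *Mbd1*. The 9 NuRD subunits ran from -0.16 for *Gatad2b* to 0.23 for the remodeling ATPase *Chd3*, with 4 higher and 5 lower.

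Of the TET partners and demethylation genes, 9 of 10 measured had a higher mean in Nr3c1Foxp3-Cre, against 49.5% of all genes. Some of these were near 0, such as *Idh2* at a log2 fold change of 0.0089 and *Tdg* at 0.05. The median of the list was 0.15, and none of its genes passed an adjusted p of 0.05 in limma. *Cxxc5*, a CXXC-domain protein known to bind TET2, was at log2 CPM 0.31, 0.26 and 0.35 in control and 1.24, 1.39 and 1.12 in Nr3c1Foxp3-Cre. All 3 Nr3c1Foxp3-Cre libraries were above all control libraries, at a low level. Its log2 fold change was 0.94 (SE 0.36, unadjusted p = 0.0266 and adjusted p = 1.0 in limma). *Idh1*, which makes the TET cofactor alpha-ketoglutarate, was the single gene of the list with a lower mean, at -0.06.

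Beyond the core, 10 other PRC2 subunits were measured, with 4 higher, 6 lower and none at an unadjusted p under 0.05. Log2 fold changes were 0.13 for *Ezh1*, -0.05 for *Rbbp4*, -0.03 for *Rbbp7* and 0.09 for *Jarid2*, an accessory subunit. The extremes were *Phf19* at -0.42 and *Lcor* at 0.31, both at low levels. The 23 PRC1 subunits, which ubiquitinate histone H2A at Polycomb targets, divided into 10 higher and 13 lower with a median of -0.0045. The most positive was *Pcgf6* at 0.31 and the most negative *Scmh1* at -0.44, and in both the groups did not overlap. The groups also lay apart for *Cbx2* (0.22) and *Phc2* (-0.24), which are named here after their values were seen. Of the opposing enzymes, *Kdm6a* had a log2 fold change of 0.0047 and *Kdm6b* 0.19, both H3K27 demethylases, and the H2A deubiquitination genes ran from -0.01 for *Bap1* to 0.26 for *Asxl1*.

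Genes known to carry these marks in T cells were examined next. Of 6 Treg genes known for their demethylated regions, 4 were higher and 2 lower. *Foxp3* had a log2 fold change of 0.05 and *Ctla4* -0.40. *Ikzf4*, which encodes the *Foxp3* partner Eos, was at log2 CPM 6.27, 6.95 and 6.30 in control and 7.04, 6.81 and 6.97 in Nr3c1Foxp3-Cre. The groups overlapped through control replicate 2. Its log2 fold change was 0.43 (unadjusted p = 0.0363 and adjusted p = 1.0 in limma, interval 0.03 to 0.83). Of 7 lineage genes known as Polycomb targets in T cells, 3 had a value, from *Gata3* at -0.06 to *Ifng* at 0.20, and *Eomes*, *Il4*, *Il13* and *Cdkn2a* were not among the genes measured. None of 8 germline genes that DNA methylation silences in somatic cells was among the genes measured, in a table that holds only genes above the low-expression filter of the authors.

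**Figure D4:**
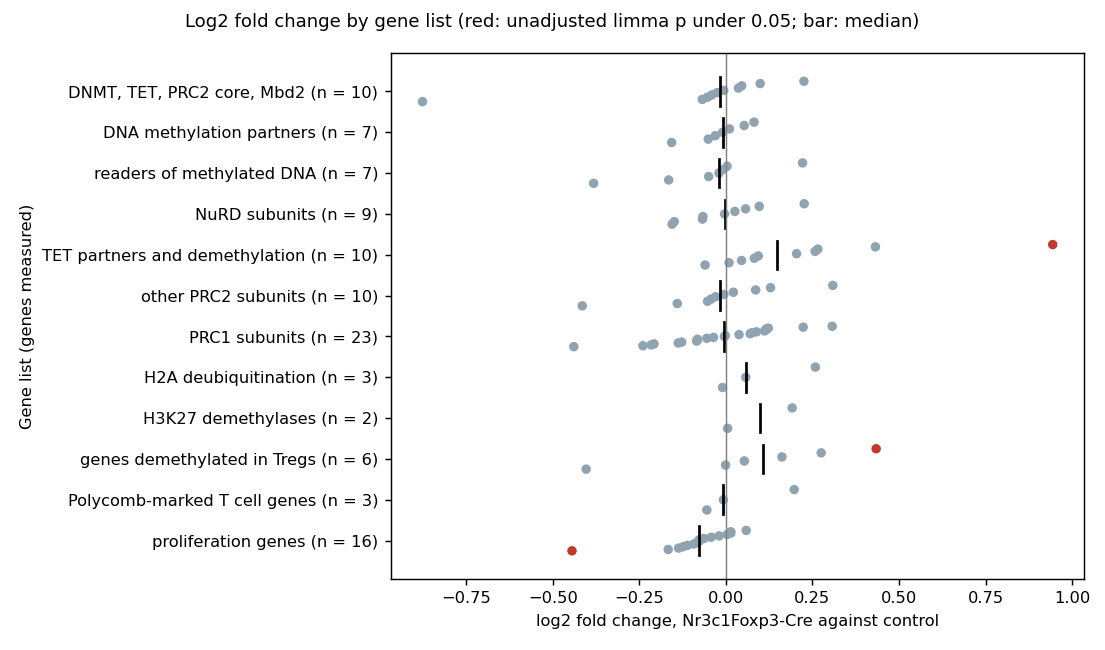
Log2 fold change, Nr3c1Foxp3-Cre against control (x axis), of each measured gene in 12 lists (y axis), with the list median as a bar and genes with an unadjusted limma p under 0.05 in red. The medians lie between -0.08 for proliferation genes and 0.15 for TET partners, and the 3 red genes are Cxxc5, Ikzf4 and Mcm6.

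*Dnmt1*, *Uhrf1* and *Ezh2* are known to rise in dividing cells, so proliferation genes were set beside them. Of 16 proliferation genes, 4 were higher and 12 lower in Nr3c1Foxp3-Cre, with a median log2 fold change of -0.08 and none called in limma. Their summed level was 4466 to 5329 CPM in control and 4506 to 4978 in Nr3c1Foxp3-Cre. *Mcm6*, a subunit of the replicative helicase, was at log2 CPM 9.36, 9.15 and 9.48 in control and 8.88, 8.85 and 8.94 in Nr3c1Foxp3-Cre. The groups did not overlap. The *Mcm6* log2 fold change was -0.44 (unadjusted p = 0.00239 and adjusted p = 0.684 in limma), while *Mcm2* of the same helicase was at 0.06.

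The genes with the most similar profile over the 6 libraries, once each gene was centered on its own mean, were found for 1 gene of each class. For *Dnmt1* these were *Exoc2*, *Ccng1* and *Nsun3*, with root mean square differences of 0.0163, 0.0188 and 0.0283 log2 units against a median of 0.224 over all genes. For *Tet2* they were *Kmt2d* (0.0538), *Rab6b* (0.0541) and *Itgav* (0.0567), against a median of 0.373. For *Ezh2* they were *Mrpl54* (0.0179), *Prkag1* (0.0209) and *Adss* (0.0265), against a median of 0.227. With 6 libraries and 12153 genes, these are descriptions of profiles.

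In mm10 with GENCODE M21, *Dnmt1* lies on chromosome 9 at 20907209 to 20959888 (minus strand), *Dnmt3a* on chromosome 12 at 3806007 to 3914443 (plus) and *Dnmt3b* on chromosome 2 at 153649450 to 153687730 (plus). *Tet1* lies on chromosome 10 at 62804570 to 62908996, *Tet2* on chromosome 3 at 133463679 to 133545139 and *Tet3* on chromosome 6 at 83362373 to 83459084, all on the minus strand. *Ezh2* lies on chromosome 6 at 47530139 to 47595341 (minus), *Eed* on chromosome 7 at 89954654 to 89980983 (minus), *Suz12* on chromosome 11 at 79993106 to 80034123 (plus) and *Mbd2* on chromosome 18 at 70568189 to 70626131 (plus). Values are for whole genes, exons of all transcripts together. *Eed* shares 6.82% of its exon bases with *E230029C05Rik* on the opposite strand, which also had a value, and the library kit named in the labels does not mark strand, so reads from the shared stretch cannot be told apart. *Dnmt3a*, *Tet2*, *Ezh2* and *Suz12* share 0.255% to 3.60% of their exon bases with antisense or noncoding genes that had no value.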

How the data were processed

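RNA-Seq was done on sorted tumor Tregs from 3 control and 3 Nr3c1Foxp3-Cre samples, grouped by the genotype in the labels. Reads had been trimmed (Cutadapt), aligned to mm10 (STAR) and quantified per gene against GENCODE M21 (RSEM) by the authors, who then dropped weakly expressed genes and applied quantile normalization and limma-voom. Deposited were log2 CPM values from after the normalization, which forces the same distribution on each library, so shifts shared by most genes are not measurable. Counts were not used here and depth is unknown. Precision is limited by the number of libraries.

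For the 12153 genes, limma 3.58.1 (R 4.3.3) was run with a mean-variance trend and genotype as the single term, without a pseudocount or further filter. P-values were adjusted by Benjamini-Hochberg over all genes at 0.05. The fit was tested on simulated data. Levels per length used the union of exons in GENCODE M21 on mm10, and 12130 genes (99.81%) matched by identifier. Promoter windows came from RefSeq GRCm38.p6, without those on chromosome 18.

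The 10 genes and all lists were chosen with earlier results of these data known. Named were the 10 genes, fixed partners, list genes with an unadjusted p under 0.05 or the highest or lowest log2 fold change of their list, the 3 genes nearest to *Dnmt1*, *Tet2* and *Ezh2*, and *Nr3c1* and *Tsc22d3*. Alternatives were no trend, sample quality weights, vooma weights, robust eBayes, a minimum mean log2 value of 1, log2(CPM + 1), cyclic loess, median centering, a replicate block, leaving out each library and, added after seeing the data, melanoma markers as a covariate and the longest transcript as gene length.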

Additional observations from a re-analysis of the deposited data

How the results depend on the processing

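None of the 10 genes passed an adjusted p of 0.05 in limma under any of the 16 settings, and for 140 of their 159 values the direction stayed. That count includes settings that leave the log2 fold change as it is, so that its direction could not turn. These were no trend, robust eBayes, vooma weights, the minimum mean and the replicate block. The sample quality weights and single libraries turned the direction of small changes. The number of all genes called higher was 1 and became 0 without a trend or with the replicate block, 2 with vooma weights, 7 with sample quality weights, 4 with the melanoma covariate and 0 to 3 with a library left out. The number called lower was 6 and became 0 without a trend or with the block, 12 with quality weights, 14 with the melanoma covariate and 0 to 5 with a library left out. The same-numbered libraries were not treated as paired in the main fit. Their residual correlations were -0.117, -0.329 and -0.0246, and those of differently numbered libraries ran from -0.269 to 0.365. With 3 libraries a group, these values cannot settle whether libraries were paired. With a library left out, 4 to 8 of the 10 genes were higher. At an unadjusted p under 0.05 in limma were 0 to 1 (*Tet1*, without Nr3c1Foxp3-Cre replicate 3). In 0 to 2 the groups did not overlap (2 without control replicate 2, control replicate 3 or Nr3c1Foxp3-Cre replicate 3). Smaller groups lie apart more easily, and the 7.41% of all genes is for the full set of libraries. The share of all genes was not computed for the fits with a library left out, so these counts show no gain. *Tsc22d3* lost its call with the replicate block (adjusted p = 0.137) or without a trend (0.221), and *Nr3c1* gained one with the melanoma covariate (0.0042). On the log2(CPM + 1) scale *Tet1* was at -0.34, and a minimum mean of 1 removed it, as it did *Cxxc5* and *Zbtb33*.

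With sample quality weights these log2 fold changes reversed: *Dnmt1* -0.024, *Dnmt3b* 0.30, *Tet2* 0.19, *Eed* 0.011, *Suz12* -0.11, *Uhrf1* -0.044, *Rbbp7* 0.017, *Kdm6a* -0.052, *Gatad2b* 0.0052, *Bap1* 0.013, *Gata3* 0.020, *Mcm2* -0.048, *Exoc2* -0.00025, *Nsun3* -0.0073, *Kmt2d* 0.27, *Rab6b* 0.10, *Itgav* 0.083. With the melanoma covariate *Kdm6a* was at -0.015. With a library left out, the log2 fold changes that crossed 0 ranged as follows: *Dnmt3a* -0.039 to 0.16, *Dnmt3b* -0.26 to 0.25, *Tet2* -0.28 to 0.15, *Ezh2* -0.15 to 0.028, *Eed* -0.13 to 0.020, *Suz12* -0.022 to 0.14, *Mbd2* -0.050 to 0.0099 among the 10 genes, and *Uhrf1* -0.048 to 0.047, *Rbbp4* -0.12 to 0.0046, *Rbbp7* -0.11 to 0.022, *Jarid2* -0.21 to 0.27, *Kdm6a* -0.21 to 0.17, *Kdm6b* -0.013 to 0.46, *Foxp3* -0.21 to 0.31, *Smchd1* -0.038 to 0.18, *Zbtb33* -0.71 to 0.024, *Gatad2b* -0.29 to 0.0051, *Idh1* -0.28 to 0.18, *Bap1* -0.039 to 0.030, *Gata3* -0.26 to 0.19, *Mcm2* -0.061 to 0.12, *Kmt2d* -0.23 to 0.17, *Rab6b* -0.31 to 0.077, *Itgav* -0.31 to 0.094, *Mrpl54* -0.12 to 0.037, *Prkag1* -0.12 to 0.029, *Adss* -0.13 to 0.063 among the others. The causes were not tested.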
